A study of Mus musculus with 30 samples.

Results

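Cells obtain cholesterol by making it and by taking it up, and a sensing system in the endoplasmic reticulum adjusts both. The genes described here are 29 genes of this system, 20 enzymes of sterol synthesis and 9 genes of sterol sensing, intracellular transport and export. They are the rows of the count matrix, among 57186 gene identifiers, whose Ensembl identifier without its version maps to the chosen mouse symbols, and all 29 were found. The enzymes fall into 8 genes of the mevalonate steps and prenyl chains (Acat2, Hmgcs1, Mvk, Pmvk, Mvd, Idi1, Fdps and Ggps1), 3 genes that make squalene and lanosterol (Fdft1, Sqle and Lss) and 9 genes that turn lanosterol into cholesterol (Cyp51, Tm7sf2, Lbr, Msmo1, Nsdhl, Hsd17b7, Ebp, Sc5d and Dhcr7). The sensing genes are Insig1, Insig2, Srebf2 and Scap, and the transport and export genes are Stard4, Npc1, Npc2, Abca1 and Abcg1. RNA was sequenced from 2 mouse cell lines exposed to cycloheximide, a drug that blocks elongation on ribosomes, at 0.1 µg/mL. NIH/3T3 is a fibroblast line, kept here in DMEM with 10% fetal bovine serum, and CGR8, kept in N2B27 with 2i/LIF and no serum named, is a line of embryonic stem cells. Both lines carry the ROSA26 SLT knock-in, so no group lacks it, and the labels do not say whether a line is 1 clone. The exposures lasted 0, 1, 2, 5 and 48 h, with 3 replicates, lettered A, B and C, of each line and time. This gives 30 libraries in 10 groups. The 0 h libraries are the only untreated ones. At each later time, 48 h included, the drug therefore cannot be told apart from the time in culture, and the medium cannot be told apart from the line.

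In this system, SREBP-2, the product of Srebf2, is a transcription factor held in the endoplasmic reticulum membrane. SCAP carries it to the Golgi for cleavage when sterols are low, and the INSIG proteins hold SCAP back when sterols are high. The released factor binds sterol regulatory elements, often beside sites of the factor NF-Y, in front of genes of sterol synthesis, of Insig1 and of Srebf2 itself. Oxysterols act through another factor, LXR, on the export pumps ABCA1 and ABCG1.

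Totals ranged from 18216993 to 30503109 counts per library. The summed level of 6 embryonic stem cell markers was 0 to 0.553 CPM, counts scaled to the library's size, in NIH/3T3 and 4433 to 6477 CPM in CGR8, and that of 6 fibroblast markers was 4014 to 10537 CPM in NIH/3T3, where Thy1 never exceeded 1 CPM, and 2.02 to 5.23 CPM in CGR8. Of 5 primitive endoderm markers, 4 never exceeded 1 CPM in NIH/3T3 and 3 never did in CGR8, where the list summed to 1.44 to 4.65 CPM, and of 5 adipocyte markers only Lpl exceeded 1 CPM in either line. The root mean square distance of a library from the mean of its 2 fellow replicates was 0.0837 to 0.436. It was taken on log2 of CPM plus 1, over genes averaging 5 CPM or more within that line. In 5 groups the farthest library lay over 0.3 away: replicate C of NIH/3T3 at 1 h, replicate A of NIH/3T3 at 2 h, and in CGR8 replicate B at 0 h, replicate A at 2 h and replicate A at 5 h. Replicate B of CGR8 at 2 h (0.306) and replicate C of CGR8 at 5 h (0.349) also lay over 0.3 away. Both were kept, each being nearer than replicate A of its group. The counts of members called are given below with all libraries and, where they moved by more than 1.5 times, also without these 5, a setting added after the data were seen. The labels do not say that replicates are separate cultures, so the p-values measure the spread between these libraries, which may be technical.

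The promoters of the genes on which the results turn are shown first. They are those of Msmo1 and Dhcr7, which had the largest called falls at 48 h in NIH/3T3 and in CGR8, and of the INSIG genes. The mRNAs of Insig1 and Insig2 were called in opposite directions at 48 h in NIH/3T3 and at 5 h in CGR8. The promoter of Hmgcs1 was added because its window alone held the sterol regulatory element without mismatch. Each is a RefSeq window of the build GRCm38.p6 from 250 bases before to 50 bases after the start of the gene, and 23 of the 29 members have one. Fdps, Fdft1, Sqle, Stard4, Npc1 and Abcg1 have none in the table used. Where a gene has several windows, the one with the most motif matches is shown. Capitals mark the sterol regulatory element TCACNCCAC with up to 1 mismatch, and the NF-Y box CCAAT, which reads ATTGG where it lies on the other strand. The windows lie at chr8:64733529-64733828, minus strand, at chr7:143829964-143830263, plus strand, at chr5:28071162-28071461, plus strand, at chr1:121332540-121332839, minus strand, and at chr13:119690101-119690400, plus strand, each printed 5′ to 3′ along its gene.
Msmo1: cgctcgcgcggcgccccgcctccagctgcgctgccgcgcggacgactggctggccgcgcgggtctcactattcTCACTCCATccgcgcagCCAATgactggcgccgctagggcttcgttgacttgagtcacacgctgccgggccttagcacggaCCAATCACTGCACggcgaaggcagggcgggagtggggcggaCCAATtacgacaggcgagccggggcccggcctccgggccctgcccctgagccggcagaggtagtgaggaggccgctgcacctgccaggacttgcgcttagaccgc
Dhcr7: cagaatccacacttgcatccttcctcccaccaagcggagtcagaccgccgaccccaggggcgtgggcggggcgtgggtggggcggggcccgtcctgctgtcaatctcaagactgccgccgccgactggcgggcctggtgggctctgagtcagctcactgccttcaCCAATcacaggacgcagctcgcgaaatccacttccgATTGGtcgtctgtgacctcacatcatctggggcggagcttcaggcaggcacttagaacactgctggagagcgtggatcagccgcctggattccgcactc
Insig1: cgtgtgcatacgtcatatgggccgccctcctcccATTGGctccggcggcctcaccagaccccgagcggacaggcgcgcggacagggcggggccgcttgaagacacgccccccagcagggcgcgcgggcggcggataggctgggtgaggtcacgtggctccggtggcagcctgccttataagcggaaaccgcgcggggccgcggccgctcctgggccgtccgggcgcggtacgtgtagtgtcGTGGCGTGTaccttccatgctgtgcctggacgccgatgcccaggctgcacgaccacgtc
Insig2: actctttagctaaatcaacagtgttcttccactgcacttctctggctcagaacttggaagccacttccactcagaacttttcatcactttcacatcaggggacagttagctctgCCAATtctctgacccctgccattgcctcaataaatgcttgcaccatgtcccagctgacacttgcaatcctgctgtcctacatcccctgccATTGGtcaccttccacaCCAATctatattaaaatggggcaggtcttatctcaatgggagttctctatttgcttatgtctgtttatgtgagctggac
Hmgcs1: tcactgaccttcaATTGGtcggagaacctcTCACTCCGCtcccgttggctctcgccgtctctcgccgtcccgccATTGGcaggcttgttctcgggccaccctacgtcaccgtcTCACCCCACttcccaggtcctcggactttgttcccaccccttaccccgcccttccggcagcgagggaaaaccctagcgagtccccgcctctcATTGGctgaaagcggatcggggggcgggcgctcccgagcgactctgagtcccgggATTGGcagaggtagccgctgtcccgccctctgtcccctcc

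Both strands were searched. The exact element TCACNCCAC was present in the window of 1 of the 23 members (4.35%), against 1.24% of all 32851 windows and 1.46% of the 11566 genes that have a window and were tested. With 1 mismatch allowed it was present in 10 members (43.5%), against 24.2% of all windows and 29.3% of tested genes. CCAAT was present in 20 of the 23 members (87.0%), against 37.4% of windows and 43.1% of tested genes, and 16 of the 17 enzymes with a window held it. The GC box GGGCGG was present in 21 members (91.3%), against 35.7% of windows and 66.4% of tested genes, and the E-box CACGTG in 6 (26.1%), against 7.15% and 11.4%. In the Hmgcs1 window the exact element begins at position -137 from the start, and in that of Msmo1 an element with 1 mismatch begins at -92 and overlaps a CCAAT that begins at -96. The Dhcr7 and Insig2 windows shown hold CCAAT and no such element, while another listed window of each gene holds an element with 1 mismatch. These matches describe letters in a window.

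Before treatment most of these mRNAs were more abundant in the stem cells. Of the 29 members, 20 were called higher in CGR8 and 7 lower (edgeR adjusted p under 0.05 over all genes), where 42.8% of all genes tested were called higher and 36.3% lower. The members' median difference was 1.17 on the log2 scale, beside 0.15 for all genes. Among the enzymes 15 were higher in CGR8 and 5 lower, the latter Cyp51, Sqle, Ggps1, Hsd17b7 and Sc5d. Cyp51, the lanosterol demethylase, stood at 390.1, 418 and 387 CPM in the 3 NIH/3T3 libraries and at 122, 135 and 124 CPM in CGR8, a difference of log2 -1.69 (SE 0.09, adjusted p = 8.86e-16). Mvd, which makes isopentenyl diphosphate, showed the opposite order, with 7.46, 9.56 and 10.3 CPM in NIH/3T3 and 76.8, 94.2 and 73.9 CPM in CGR8. The groups did not overlap for either gene. Per kilobase of annotated exon, the highest members in NIH/3T3 were Cyp51 (90.2 ± 3.89 CPM per kb, SD, n = 3), Srebf2 (42.9 ± 2.03), Sqle (34 ± 1.11) and Npc2 (30.8 ± 1.26). In CGR8 Lbr (55 ± 5.40), Insig1 (52.4 ± 1.88), Fdps (51.9 ± 6.79), Srebf2 (51.6 ± 3.10) and Acat2 (50.1 ± 6.45) led, at levels that do not differ beyond their spread. The length used joins every annotated exon of a gene, 5.438 kb for Npc2 and 11.317 kb for Npc1. This order may therefore differ from that of the transcripts made.

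The reductases that saturate the carbon 14 double bond, Tm7sf2 and the membrane protein Lbr, both differed between the lines. In NIH/3T3 Tm7sf2 stood at 1.43, 1.15 and 1.81 CPM and in CGR8 at 17.4, 18 and 15.8 CPM, while Lbr stood at 102, 106 and 90.7 and 247, 291 and 246 CPM. Scap was higher in NIH/3T3 (93.1, 92.3 and 101 CPM) than in CGR8 (31.1, 31.5 and 28.3 CPM), and Insig1 was higher in CGR8 (161, 168 and 157 CPM) than in NIH/3T3 (57.9, 60.4 and 57.3 CPM). The export pump genes were near the limit of detection in the fibroblasts. Abca1 had 1, 2 and 2 counts in the untreated NIH/3T3 libraries and Abcg1 had 6, 2 and 10, while in CGR8 Abca1 stood at 13.8, 10.5 and 14.7 CPM and Abcg1 at 12.3, 15.3 and 11.4 CPM. The levels of Srebf2 and of Npc1, the late endosomal cholesterol transporter, were not called different (adjusted p = 0.0932 and 0.947), although Srebf2 was called higher in CGR8 with DESeq2 (adjusted p = 0.0254). DESeq2 called 21 members higher in place of 20. The count was also 21 with RLE factors, library size alone, voom, a mean of at least 5 CPM, and without the outlying libraries. In all of these settings the enzymes stayed at 15 higher and 5 lower. Mvk and Npc2 lost their call without CGR8 0 h replicate B (adjusted p = 0.109 and 0.108).

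**Figure D1:**
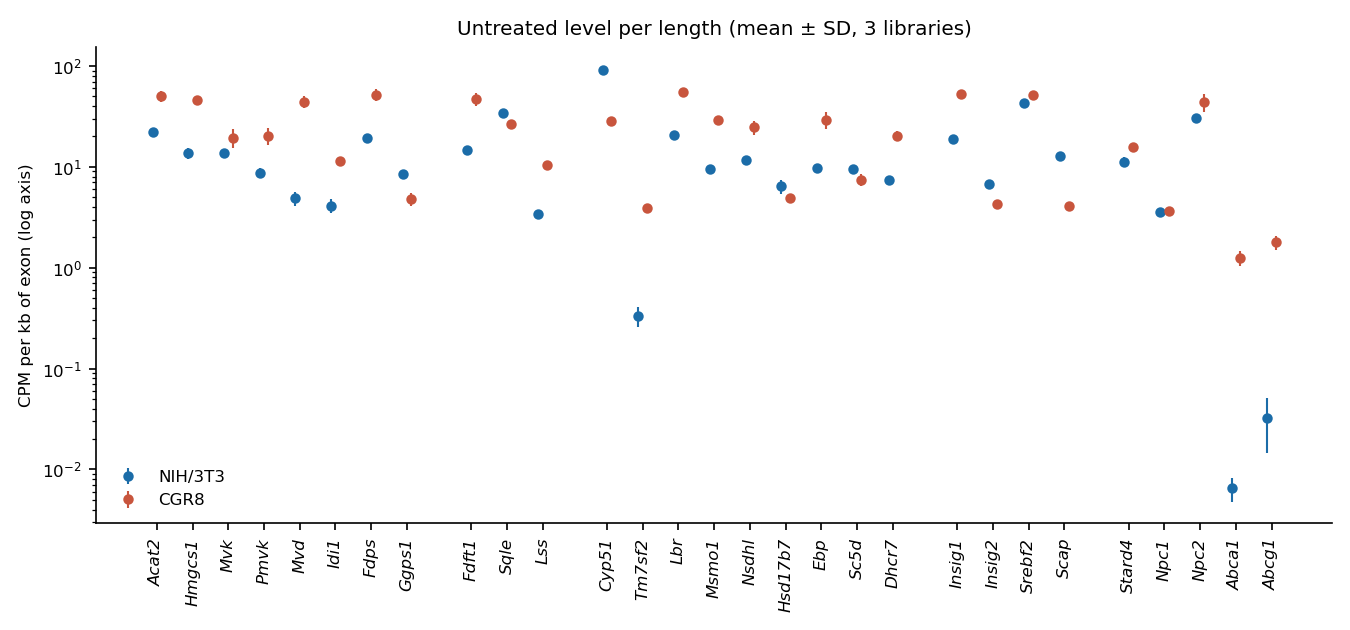
Untreated level of each member in CPM per kilobase of annotated exon (log axis), mean ± SD of 3 libraries, NIH/3T3 in blue and CGR8 in red, ordered by role. Most enzymes lie higher in CGR8, Cyp51 and Scap lie higher in NIH/3T3, and Abca1 and Abcg1 lie far below the other members in NIH/3T3.

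At 1 h no member was called in either line, where 0.732% of all genes were called in NIH/3T3 and 0.27% in CGR8. With p unadjusted and under 0.05 the count was 0 among the 28 NIH/3T3 genes and 3 among the 29 CGR8 genes. DESeq2 called 0 in both, and limma's voom with sample quality weights called 2 (Idi1 and Stard4) and 4 (Mvk, Cyp51, Scap and Npc1). Voom also raised the total over all genes tested, from 102 to 2881 for NIH/3T3 and from 43 to 1044 for CGR8. Without replicate C at 1 h, the library farthest from its fellows, and replicate A at 2 h, 2 members were called at 1 h in NIH/3T3, Acat2 and Fdps, both lower, while the genes called among all tested rose from 102 to 2100. At 2 h the members called lower in both lines were Srebf2, Scap and Npc1, genes of sensing and transport. Npc1 stood at 28.7, 25.1 and 23.6 CPM at 2 h in NIH/3T3, after 42.4, 40.3 and 37.9 CPM at 0 h, a change of log2 -0.64 (SE 0.12, adjusted p = 0.000934). In CGR8 it stood at 22.9, 23.7 and 18.2 CPM after 42.8, 40.6 and 41.7 CPM, a change of log2 -0.95 (SE 0.12, adjusted p = 0.000133). The groups did not overlap in either line. Scap changed by log2 -0.55 (SE 0.14) in NIH/3T3 and by log2 -0.46 (SE 0.12) in CGR8, and Srebf2 by log2 -0.39 (SE 0.11) and log2 -0.39 (SE 0.13).

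Of the enzymes, Sqle was called lower (log2 -0.25, SE 0.08) and Idi1 higher (log2 0.43, SE 0.14) at 2 h in NIH/3T3, and Cyp51 was called higher (log2 0.46, SE 0.10, adjusted p = 0.00702) in CGR8. In all, 1 of the 28 members tested in NIH/3T3 was called higher and 4 lower, where 16.1% and 18.9% of all genes were, and in CGR8 1 of 29 higher and 3 lower, where 8.97% and 11% were. These shares are no larger than the background, and scaled by library size alone the counts were 0 higher and 5 lower in NIH/3T3 and 1 and 4 in CGR8. Several of these calls were lost (adjusted p of 0.05 or more) with 1 library left out. In NIH/3T3 the call of Idi1 was lost without 0 h replicate A, 0 h replicate C, 2 h replicate B or 2 h replicate C (adjusted p = 0.0865, 0.0999, 0.152 and 0.0578). Sqle was lost without 0 h replicate A, 0 h replicate B, 2 h replicate B or 2 h replicate C (adjusted p = 0.0677, 0.0591, 0.08 and 0.102). That of Srebf2 was lost without 2 h replicate B or 2 h replicate C (adjusted p = 0.0601 and 0.0678). In CGR8 Srebf2 was lost without 0 h replicate A, 0 h replicate B, 0 h replicate C or 2 h replicate C (adjusted p = 0.12, 0.0875, 0.0666 and 0.206). Scap was lost there without 0 h replicate A or 2 h replicate C (adjusted p = 0.0653 and 0.0866). The count of members called fell to 3 without NIH/3T3 0 h replicate A or 2 h replicate B and to 2 without 2 h replicate C, and in CGR8 to 2 without 0 h replicate A or 2 h replicate C. Without the outlying libraries it rose to 12 in NIH/3T3 and to 8 in CGR8, while the genes called among all tested rose from 4878 to 7718 of 13941 and from 3174 to 4423 of 15933.

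By 5 h most members had fallen in the fibroblasts. In NIH/3T3 20 of 28 members were called lower and 0 higher (edgeR; 0 also at an unadjusted p under 0.05 and with DESeq2, 2 with voom), where 27.1% of all genes were called lower and 24% higher, and the members' median change was -0.48 on the log2 scale beside -0.01 for all genes. The falls covered 15 of the 20 enzymes (median log2 -0.45) and 5 of the 8 sensing, transport and export genes tested (median log2 -0.98), namely Insig1, Srebf2, Scap, Stard4 and Npc1. In CGR8 10 of 29 members were called lower and 3 higher, where 27.2% and 24.9% of all genes were. Scaled by library size alone, which moved the median of all genes by log2 -0.104, 14 were called lower and 2 higher. The 5 enzymes that fell in CGR8 were Sqle, Lbr, Hsd17b7, Sc5d and Dhcr7, the enzymes' median was log2 -0.17, and the other 9 genes had a median of log2 -0.63, with Insig1, Srebf2, Scap, Npc1 and Abcg1 lower and Insig2 higher. Of the enzymes Pmvk (log2 0.54, SE 0.17) and Ggps1 (log2 0.41, SE 0.15) were called higher in CGR8. The summed level of the 20 enzymes was 1322, 1391 and 1304 CPM at 0 h and 964, 966 and 938 CPM at 5 h in NIH/3T3, without overlap. In CGR8 it was 2072, 2341 and 2049.7 CPM at 0 h and 1863, 2032 and 1788 CPM at 5 h. These groups did not overlap but nearly met, at 2049.7 CPM for the lowest of 0 h and 2032 CPM for the highest of 5 h.

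Of the 20 calls at 5 h in NIH/3T3, 16 held with each library left out in turn. Acat2 was lost without 0 h replicate C, 5 h replicate A or 5 h replicate C (adjusted p = 0.0919, 0.0557 and 0.0847). Mvd was lost without 0 h replicate B, 0 h replicate C, 5 h replicate B or 5 h replicate C (adjusted p = 0.0673, 0.132, 0.0759 and 0.0777). Nsdhl was lost without 0 h replicate B or 5 h replicate C (adjusted p = 0.0541 and 0.0575). Cyp51 was lost without any of the 6 libraries compared (adjusted p = 0.0537 to 0.103). In CGR8 11 of 13 held. Both rising enzymes were among those lost, while without the outlying libraries, and with voom, 5 enzymes were called higher in place of 2. Pmvk was lost without 0 h replicate A, 0 h replicate C, 5 h replicate A or 5 h replicate B (adjusted p = 0.0628, 0.0697, 0.061 and 0.0624). Ggps1 was lost without 0 h replicate A, 0 h replicate B or 5 h replicate C (adjusted p = 0.0567, 0.114 and 0.108). Marker lists also moved by 5 h. In NIH/3T3 the summed fibroblast markers stood at 4231 to 4954 CPM after 6559 to 7110 CPM at 0 h, and the primitive endoderm list at 12.8 to 15.7 CPM after 11.8 to 12.6 CPM. In CGR8 the stem cell markers stood at 5904 to 6477 CPM after 4433 to 4563 CPM, and the fibroblast list at 2.02 to 2.54 CPM after 4.25 to 5.23 CPM. The CGR8 primitive endoderm list stood at 1.44 to 1.91 CPM after 2.47 to 3.14 CPM, and the adipocyte list, of which only Lpl exceeded 1 CPM, at 23.0 to 33.6 CPM after 11.6 to 13.0 CPM. Their part in the results was not tested. Among the CGR8 libraries of 5 h, replicate A (distance 0.365) was low for Idi1 (31.8, 52.8 and 56 CPM) and Stard4 (56.5, 87 and 88.4 CPM), and replicate C (0.349) was low for Acat2 (157, 156 and 119.9 CPM) and Pmvk (58.4, 57 and 36.6 CPM).

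At 48 h 19 of the 20 synthesis enzymes were called lower in NIH/3T3 and 14 in CGR8. In NIH/3T3 22 of 28 members were called lower and 2 higher, where 25.6% and 26.7% of all genes were, and the lower ones included these 19 enzymes (median log2 -1.07). Tm7sf2 was the enzyme not called (log2 0.34, SE 0.28). The other 8 tested genes had a median of log2 -0.22, with Insig1, Srebf2 and Stard4 lower and Insig2 and Abcg1 higher. Abcg1 passed the filter for tested genes there only through its 48 h libraries, the group where it is high. Its call therefore gives no support for a rise. In CGR8 17 of 29 were called lower and 0 higher (edgeR; 0 also at an unadjusted p under 0.05 and with DESeq2, 1 with voom), where 15.6% and 12.2% of all genes were. They were 14 enzymes (median of all 20, log2 -0.57) and Insig1, Npc2 and Abcg1 (median of the 9 genes, log2 -0.29). The enzymes not called in CGR8 were Pmvk, Idi1, Ggps1, Cyp51, Hsd17b7 and Ebp. The change was below 0 in 19 of the 20 enzymes there, and 21 members were lower at an unadjusted p under 0.05. The CGR8 enzymes called lower were 18 with voom, 16 without the outlying libraries, 15 with DESeq2 and 11 without 48 h replicate B. All genes tested had a median of log2 -0.01 in NIH/3T3 and log2 -0.00267 in CGR8. In NIH/3T3 the summed fibroblast markers stood at 10174 to 10537 CPM at 48 h after 6559 to 7110 CPM at 0 h, and the primitive endoderm markers, 4 of 5 of which never exceeded 1 CPM, at 20.3 to 21.1 CPM after 11.8 to 12.6 CPM. In CGR8 the latter stood at 4.03 to 4.65 CPM at 48 h after 2.47 to 3.14 CPM, and the adipocyte list at 7.20 to 8.55 CPM. The part of these shifts in the results was not tested, and in a bulk sample fewer cells of a type cannot be told apart from less RNA per cell. The summed level of the enzymes reached 566, 562 and 558 CPM in NIH/3T3 and 1566, 1308 and 1318 CPM in CGR8. Of the 24 calls in NIH/3T3 22 held with each library left out in turn. Ggps1 was lost without any of the 6 compared (adjusted p = 0.054 to 0.157), and Abcg1 without the 0 h replicate B (adjusted p = 0.0521). Of the 17 in CGR8 14 held. Hmgcs1 was lost without 0 h replicate A, 0 h replicate C, 48 h replicate B or 48 h replicate C (adjusted p = 0.0764, 0.0644, 0.119 and 0.093). Sqle was lost without the 48 h replicate B (adjusted p = 0.0618). Sc5d was lost without 0 h replicate A or 48 h replicate B (adjusted p = 0.0703 and 0.0699).

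**Figure D2:**
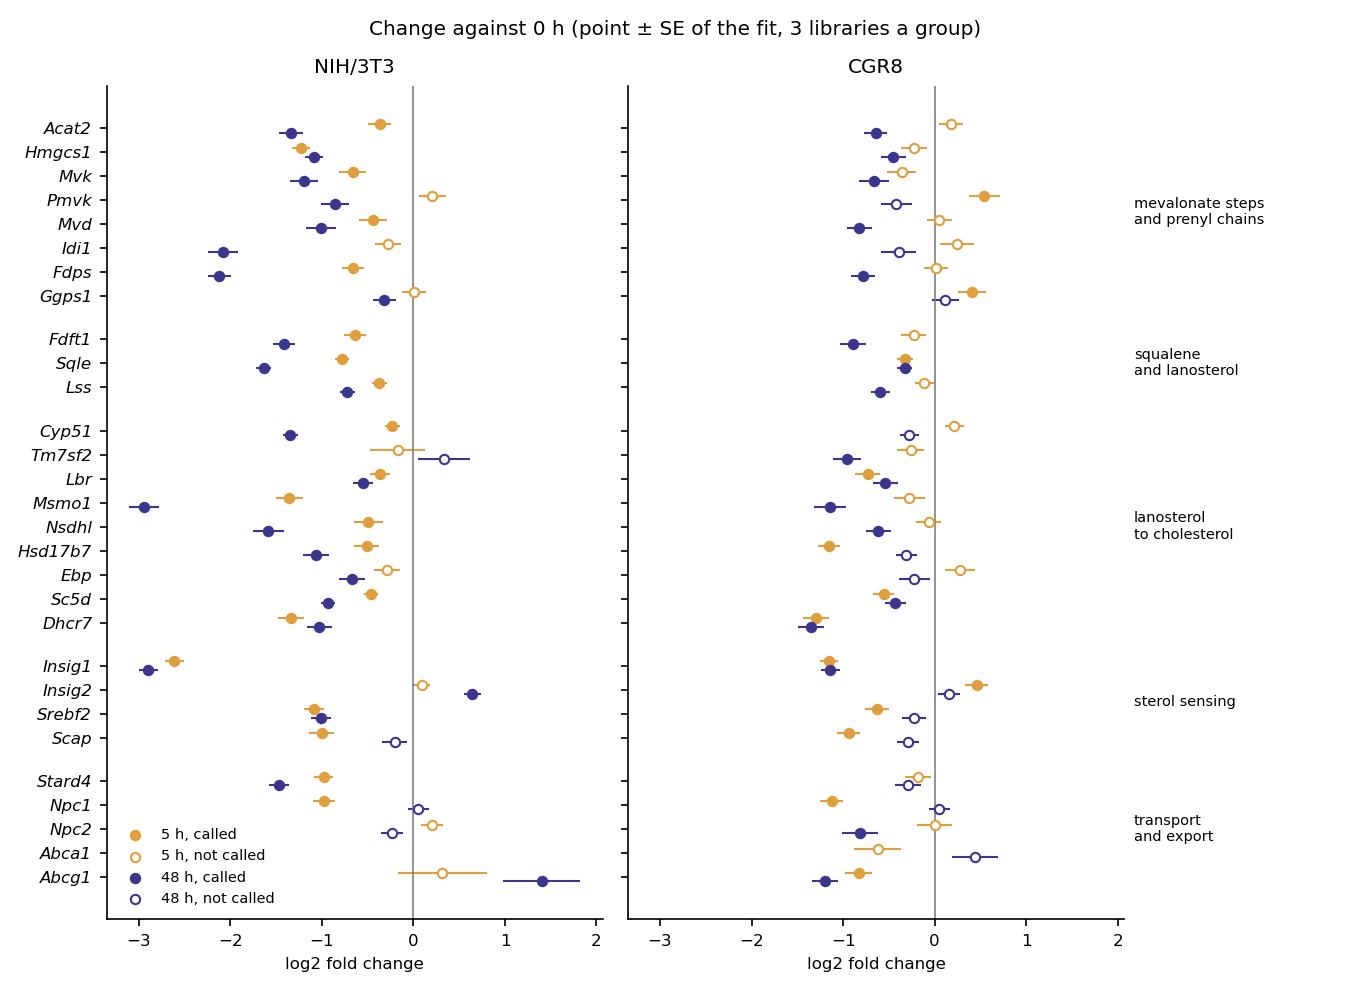
Log2 fold change against 0 h of each member at 5 h (orange) and 48 h (purple), point ± SE of the edgeR fit, filled where called, NIH/3T3 on the left and CGR8 on the right, ordered by role. In NIH/3T3 the 48 h points of 19 enzymes lie below 0 and most lie left of the 5 h points, while in both lines Npc1 is low at 5 h and near 0 at 48 h and Scap lies nearer to 0 at 48 h than at 5 h. Abca1 is not plotted in NIH/3T3, where it was not tested.

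Between 5 h and 48 h most enzymes went down, while the other genes went both ways. In NIH/3T3 16 of 20 enzymes were called lower at 48 h than at 5 h and 0 higher, with a median of log2 -0.56, while of the other 8 tested genes 4 were called higher and 3 lower (median log2 0.31). By edgeR 1 enzyme, Dhcr7, was higher at an unadjusted p under 0.05, and DESeq2 called 0 higher and voom 1. Over all genes 34.1% were called higher and 31.4% lower. In CGR8 12 enzymes were called lower and 1 higher, Hsd17b7 (median log2 -0.49), and of the other 9 genes 4 were called higher and 3 lower (median log2 0.01), where 28.9% and 28.6% of all genes were. Whether the classes differ was not tested. Scap and Npc1 rose in both lines. In NIH/3T3 Insig2 also rose and Abcg1 was called higher, while Insig1, Stard4 and Npc2 were called lower. The call of Abcg1 again gives no support for a rise, since only its 48 h libraries brought it through the filter. In CGR8 Abca1 rose and Srebf2 was called higher, while Insig2, Npc2 and Abcg1 were called lower. The summed level of the 9 sensing, transport and export genes was 483, 464 and 473 CPM at 5 h and 489, 486 and 489 CPM at 48 h in NIH/3T3, and 654, 784 and 665 and 786, 665 and 667 CPM in CGR8. With each library left out in turn 19 of the 23 calls held in NIH/3T3 and 15 of the 20 in CGR8. In NIH/3T3 Ggps1 was lost in 5 of the 6 fits that leave out a compared library and Ebp also in 5 (adjusted p up to 0.112 and 0.114). Insig1 was lost without 5 h replicate C, 48 h replicate B or 48 h replicate C (adjusted p = 0.143, 0.15 and 0.0525). Abcg1 was lost without 5 h replicate A, 5 h replicate C, 48 h replicate B or 48 h replicate C (adjusted p = 0.0564, 0.11, 0.0644 and 0.0723). In CGR8 Idi1 was lost without the 48 h replicate B (adjusted p = 0.0534). Ebp was lost there without 5 h replicate A, 5 h replicate B, 48 h replicate A or 48 h replicate C (adjusted p = 0.0537, 0.0678, 0.0514 and 0.0732). Insig2 was lost without 5 h replicate B, 5 h replicate C, 48 h replicate B or 48 h replicate C (adjusted p = 0.0863, 0.146, 0.187 and 0.112). Srebf2 was lost without 5 h replicate A or 48 h replicate A (adjusted p = 0.0722 and 0.0793), and Abcg1 in 5 of 6 such fits (adjusted p = 0.0627 to 0.168). The fall of Insig2 in CGR8 was not called with the replicate letter as a block either (adjusted p = 0.0573).

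**Figure D3:**
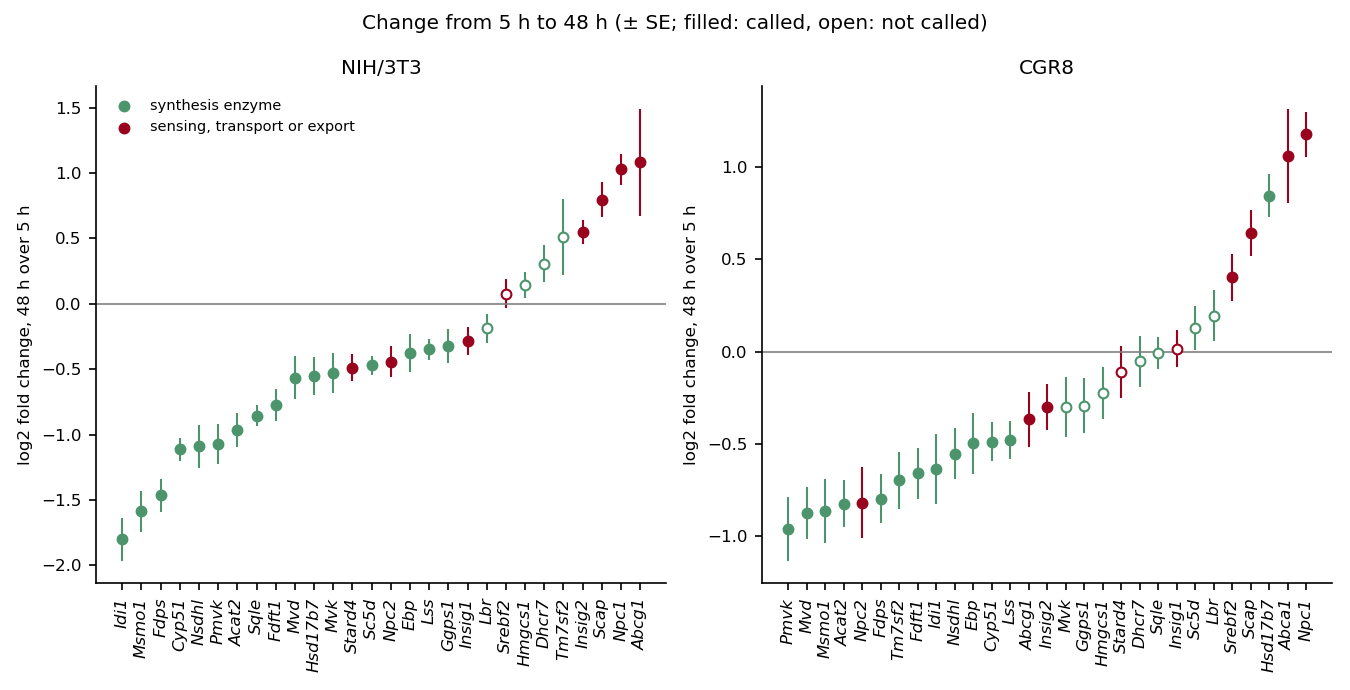
Log2 fold change from 5 h to 48 h of each member, point ± SE of the edgeR fit, sorted within each line, enzymes in green and the other genes in dark red, filled where called. The 16 called enzymes of NIH/3T3 all lie below 0, and Scap and Npc1 lie among the highest points in both lines.

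Among the mevalonate enzymes, Fdps and Idi1 had the largest falls in NIH/3T3. Fdps makes farnesyl diphosphate, from which squalene, prenyl groups and other isoprenoids are built. In NIH/3T3 Fdps stood at 79.8, 78.4 and 86.6 CPM at 0 h, 51.4, 51.6 and 52.2 CPM at 5 h and 18.5, 18.4 and 19.4 CPM at 48 h, 3 levels that did not overlap. Its change at 48 h was log2 -2.12 (SE 0.13, adjusted p = 3.59e-09). In CGR8 it stood at 204, 251 and 199.95 CPM at 0 h, 248.7, 232 and 182 CPM at 5 h and 143, 125 and 113 CPM at 48 h, so that 0 h and 5 h overlapped and 48 h lay below both, a change of log2 -0.78 (SE 0.13, adjusted p = 0.000397). Idi1, the isomerase that makes dimethylallyl diphosphate, stood at 13.8, 16.9 and 12.5 CPM at 0 h, 11.3, 13.1 and 11.2 CPM at 5 h and 3.04, 3.55 and 3.65 CPM at 48 h in NIH/3T3. Its change at 48 h was log2 -2.08 (SE 0.16, adjusted p = 5.35e-08), while the change of log2 -0.28 (SE 0.14) at 5 h was not called, and in CGR8 it was not called at either time. Mvd in CGR8 stood at 76.8, 94.2 and 73.9 CPM at 0 h, 96.2, 88.4 and 69.4 CPM at 5 h and 50.1, 45.5 and 42.8 CPM at 48 h, a change of log2 -0.82 (SE 0.14, adjusted p = 0.000384). It was lowest at 48 h, with no overlap with the earlier groups.

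Hmgcs1, the HMG-CoA synthase at the entry to the pathway, kept another time course. In NIH/3T3 it stood at 58.9, 72.2 and 57.1 CPM at 0 h, 27.1, 26.1 and 27.1 CPM at 5 h and 28.3, 29.2 and 31.3 CPM at 48 h. Its fall was in place at 5 h (log2 -1.23, SE 0.10, adjusted p = 1.37e-07), and the change from 5 h to 48 h was not called (log2 0.14, SE 0.10). In CGR8 it was not called at 5 h (log2 -0.23, SE 0.14) and was log2 -0.45 (SE 0.14) at 48 h, a call that did not hold with each library left out, as given above. Acat2, which makes acetoacetyl-CoA, changed by log2 -1.33 (SE 0.13) in NIH/3T3 and log2 -0.65 (SE 0.13) in CGR8 at 48 h. The kinases Mvk (log2 -1.20, SE 0.15, in NIH/3T3 and log2 -0.66, SE 0.16, in CGR8) and Pmvk (log2 -0.86, SE 0.15, in NIH/3T3, log2 -0.42, SE 0.17, and not called in CGR8) were lower at 48 h, except where so marked. Ggps1, which makes the longer geranylgeranyl chain used on proteins, had the smallest change of these enzymes at 48 h in NIH/3T3 (log2 -0.32, SE 0.13) and log2 0.12 (SE 0.15) in CGR8.

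The 3 enzymes of squalene and lanosterol were lower at 48 h in both lines. Sqle, the squalene epoxidase, stood at 191, 193 and 182 CPM at 0 h, 112, 109 and 108 CPM at 5 h and 62.7, 60.5 and 59.1 CPM at 48 h in NIH/3T3, without overlap, and changed by log2 -1.63 (SE 0.08, adjusted p = 5.7e-10) at 48 h. The CGR8 libraries had 142, 149 and 146 CPM at 0 h, 109, 121 and 120.1 CPM at 5 h and 124, 107 and 117 CPM at 48 h. The fall there was in place at 5 h (log2 -0.32, SE 0.09) and no further change was called (log2 -0.01, SE 0.09, from 5 h to 48 h). Fdft1, the squalene synthase, stood at 64.9, 59.8 and 61.1 CPM at 0 h, 40.9, 40.3 and 37.8 CPM at 5 h and 25.8, 21.6 and 22.3 CPM at 48 h in NIH/3T3, a change of log2 -1.41 (SE 0.12, adjusted p = 1.72e-07) at 48 h. In CGR8 Fdft1 stood at 179, 235 and 188 CPM at 0 h, 184, 179 and 151 CPM at 5 h and 124, 105 and 95.3 CPM at 48 h, with overlap of 0 h and 5 h, and changed by log2 -0.89 (SE 0.14, adjusted p = 0.000187) at 48 h. Lss, the lanosterol synthase, stood at 110.1, 115 and 112 CPM at 0 h, 100.2, 117 and 94.5 CPM at 5 h and 83.9, 70.8 and 68.9 CPM at 48 h in CGR8. It changed by log2 -0.59 (SE 0.10) in CGR8 and log2 -0.72 (SE 0.08) in NIH/3T3 at 48 h, and the difference between the lines was not called (log2 0.11, SE 0.13).

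Of the enzymes after lanosterol, Msmo1 had the largest fall in NIH/3T3. Msmo1 is the oxidase that removes the methyl groups at carbon 4, and its window above holds 3 CCAAT boxes. In NIH/3T3 it stood at 61.5, 61.8 and 52.4 CPM at 0 h, at 55.4 to 89.1 CPM over the 6 libraries of 1 h and 2 h, at 20.8, 24.4 and 23.3 CPM at 5 h and at 7.93, 6.97 and 7.92 CPM at 48 h. The 5 h and 48 h groups overlapped neither each other nor 0 h, and the change at 48 h was log2 -2.94 (SE 0.16, adjusted p = 1.55e-09). In CGR8 it stood at 180.2, 191 and 171 CPM at 0 h, 137, 160.5 and 151 CPM at 5 h and 115, 63.3 and 68.1 CPM at 48 h, a change of log2 -1.14 (SE 0.17, adjusted p = 0.000163) at 48 h. All CGR8 libraries of 48 h lay below those of 5 h, which lay below those of 0 h, but the change at 5 h was not called (log2 -0.27, SE 0.17). Nsdhl, which works with Msmo1 at carbon 4, stood at 32.1, 35.5 and 31.9 CPM at 0 h, 24.7, 23.9 and 21.9 CPM at 5 h and 11.5, 12 and 9.53 CPM at 48 h in NIH/3T3, and changed by log2 -1.58 (SE 0.17, adjusted p = 1.13e-06) at 48 h there and by log2 -0.62 (SE 0.14) in CGR8.

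Dhcr7, the reductase of the last step from 7-dehydrocholesterol, had fallen by 5 h in both lines and was still lower at 48 h. In CGR8 it stood at 116, 134 and 106 CPM at 0 h, 44.2, 53.6 and 46.9 CPM at 5 h and 54.8, 42.1 and 42.6 CPM at 48 h, changes of log2 -1.30 (SE 0.14, adjusted p = 4.03e-06) and log2 -1.35 (SE 0.14, adjusted p = 5.11e-06). In NIH/3T3 it stood at 44, 39 and 46.1 CPM at 0 h, 18, 15.1 and 18 CPM at 5 h and 20.7, 22.3 and 20.2 CPM at 48 h, changes of log2 -1.34 (SE 0.14) and log2 -1.03 (SE 0.14). The change from 5 h to 48 h was not called in either line, though the NIH/3T3 libraries of 48 h all lay above those of 5 h. Hsd17b7, the ketosteroid reductase of the same branch, turned back in CGR8. Its CGR8 levels were 27.4, 22.6 and 25.3 CPM at 0 h, 10.3, 10.5 and 13 CPM at 5 h and 21.5, 18.7 and 20.5 CPM at 48 h, so that it fell by 5 h (log2 -1.15, SE 0.12, adjusted p = 2.21e-06) and rose again (log2 0.84, SE 0.12, adjusted p = 1.98e-05). In NIH/3T3 it stood at 32.4, 38.1 and 27.5 CPM, 23.7, 21 and 23.9 CPM and 14.1, 16.7 and 16 CPM at the same times, and its level at 48 h was below that at 5 h (log2 -0.55, SE 0.14, adjusted p = 0.00286).

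Of the remaining enzymes, Cyp51 stood at 390.1, 418 and 387 CPM at 0 h and 158, 160.5 and 152 CPM at 48 h in NIH/3T3 (log2 -1.34, SE 0.09, adjusted p = 6.09e-09) and was not called at 48 h in CGR8 (log2 -0.27, SE 0.10). Tm7sf2 fell in CGR8 from 17.4, 18 and 15.8 CPM to 9.58, 8.21 and 8.52 CPM at 48 h (log2 -0.96, SE 0.15, adjusted p = 0.000246), and Lbr, the other reductase of that step, was lower at both 5 h (log2 -0.73, SE 0.14) and 48 h (log2 -0.54, SE 0.14) in CGR8 and at both times in NIH/3T3 (log2 -0.36, SE 0.11, and log2 -0.55, SE 0.11). Sc5d, the desaturase that acts before Dhcr7, changed by log2 -0.94 (SE 0.07) in NIH/3T3 and log2 -0.43 (SE 0.12) in CGR8 at 48 h. Ebp, a sterol isomerase, changed by log2 -0.67 (SE 0.14) in NIH/3T3 and was not called in CGR8 (log2 -0.22, SE 0.17).

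The sensing genes did not move together. Insig1, whose product holds the SCAP complex in the endoplasmic reticulum, stood at 57.9, 60.4 and 57.3 CPM at 0 h in NIH/3T3 and at 58.2 to 70.8 CPM over the 1 h and 2 h libraries. It then stood at 9.15, 9.02 and 10.6 CPM at 5 h and 8.49, 7.01 and 8.08 CPM at 48 h, changes of log2 -2.61 (SE 0.10, adjusted p = 1.2e-10) and log2 -2.90 (SE 0.11, adjusted p = 1.81e-11). Most of the fall was present at 5 h, and the further change to 48 h was log2 -0.28 (SE 0.11), which did not hold with each library left out. In CGR8 Insig1 stood at 161, 168 and 157 CPM at 0 h, 66.5, 80.5 and 71.4 CPM at 5 h and 79.3, 69.5 and 71.8 CPM at 48 h, changes of log2 -1.15 (SE 0.10, adjusted p = 7.26e-07) and log2 -1.14 (SE 0.10, adjusted p = 1.24e-06). The treated groups of 5 h and 48 h did not overlap 0 h in either line, and overlapped each other in CGR8 only.

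Insig2, the second INSIG gene, was the sensing gene that was called higher than at 0 h. In NIH/3T3 it stood at 23.4, 25.8 and 20.8 CPM at 0 h, 24.1, 26.6 and 23.8 CPM at 5 h and 36.8, 36.5 and 35.7 CPM at 48 h. Only the 48 h group lay above the others, and its change was log2 0.64 (SE 0.09, adjusted p = 3.24e-05). Its CGR8 levels were 15.8, 13.7 and 14.7 CPM at 0 h, 19, 20.03 and 21.7 CPM at 5 h and 18.1, 14.8 and 16.3 CPM at 48 h. Here the 5 h group lay above 0 h (log2 0.46, SE 0.12, adjusted p = 0.00602) and the 48 h group was not called different from 0 h (log2 0.16, SE 0.12). Per kilobase of exon, the mean level of Insig1 in NIH/3T3 went from 18.9 ± 0.540 CPM per kb at 0 h to 2.54 ± 0.247 at 48 h, and that of Insig2 from 6.71 ± 0.717 to 10.5 ± 0.171, so that the order of the INSIG genes turned. In CGR8 Insig1 (52.4 ± 1.88 at 0 h and 23.8 ± 1.65 at 48 h) stayed above Insig2 (4.24 ± 0.299 and 4.73 ± 0.477) on the same scale.

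Srebf2 and Scap, which encode the transcription factor and its escort, were called lower at 5 h in both lines, and from 5 h to 48 h both were called higher in CGR8 and Scap alone in NIH/3T3. In NIH/3T3 Srebf2 stood at 319, 292 and 314 CPM at 0 h, 147, 139 and 149 CPM at 5 h and 155, 151 and 154 CPM at 48 h, changes of log2 -1.09 (SE 0.11, adjusted p = 1.26e-06) and log2 -1.01 (SE 0.11, adjusted p = 1.71e-06). Scap stood at 93.1, 92.3 and 101 CPM, 49.6, 43.5 and 50.2 CPM and 84.2, 82.1 and 82.6 CPM at these times, a fall of log2 -1.002 (SE 0.14) at 5 h and a rise of log2 0.80 (SE 0.14, adjusted p = 8.04e-05) from 5 h to 48 h. Its change at 48 h against 0 h was not called (log2 -0.21, SE 0.13), though the groups did not overlap. With voom, with only the 6 libraries compared and without the outlying libraries, 24 members were called lower at 48 h in place of 22. The enzymes among them stayed at 19, and Scap and Npc2 were the other genes below 0 that the main fit did not call. In CGR8 Srebf2 stood at 379, 388 and 345 CPM at 0 h, 211, 267 and 240.1 CPM at 5 h and 363, 294 and 292 CPM at 48 h, with a fall of log2 -0.63 (SE 0.13, adjusted p = 0.000714) at 5 h and a rise of log2 0.40 (SE 0.13, adjusted p = 0.013) afterwards, the latter not called without 5 h replicate A or 48 h replicate A (adjusted p = 0.0722 and 0.0793). Scap stood there at 31.1, 31.5 and 28.3 CPM, 15.1, 15.9 and 16.4 CPM and 22.2, 26.4 and 25.6 CPM, with a fall of log2 -0.94 (SE 0.13) at 5 h and a rise of log2 0.64 (SE 0.13, adjusted p = 0.000405) afterwards.

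**Figure D4:**
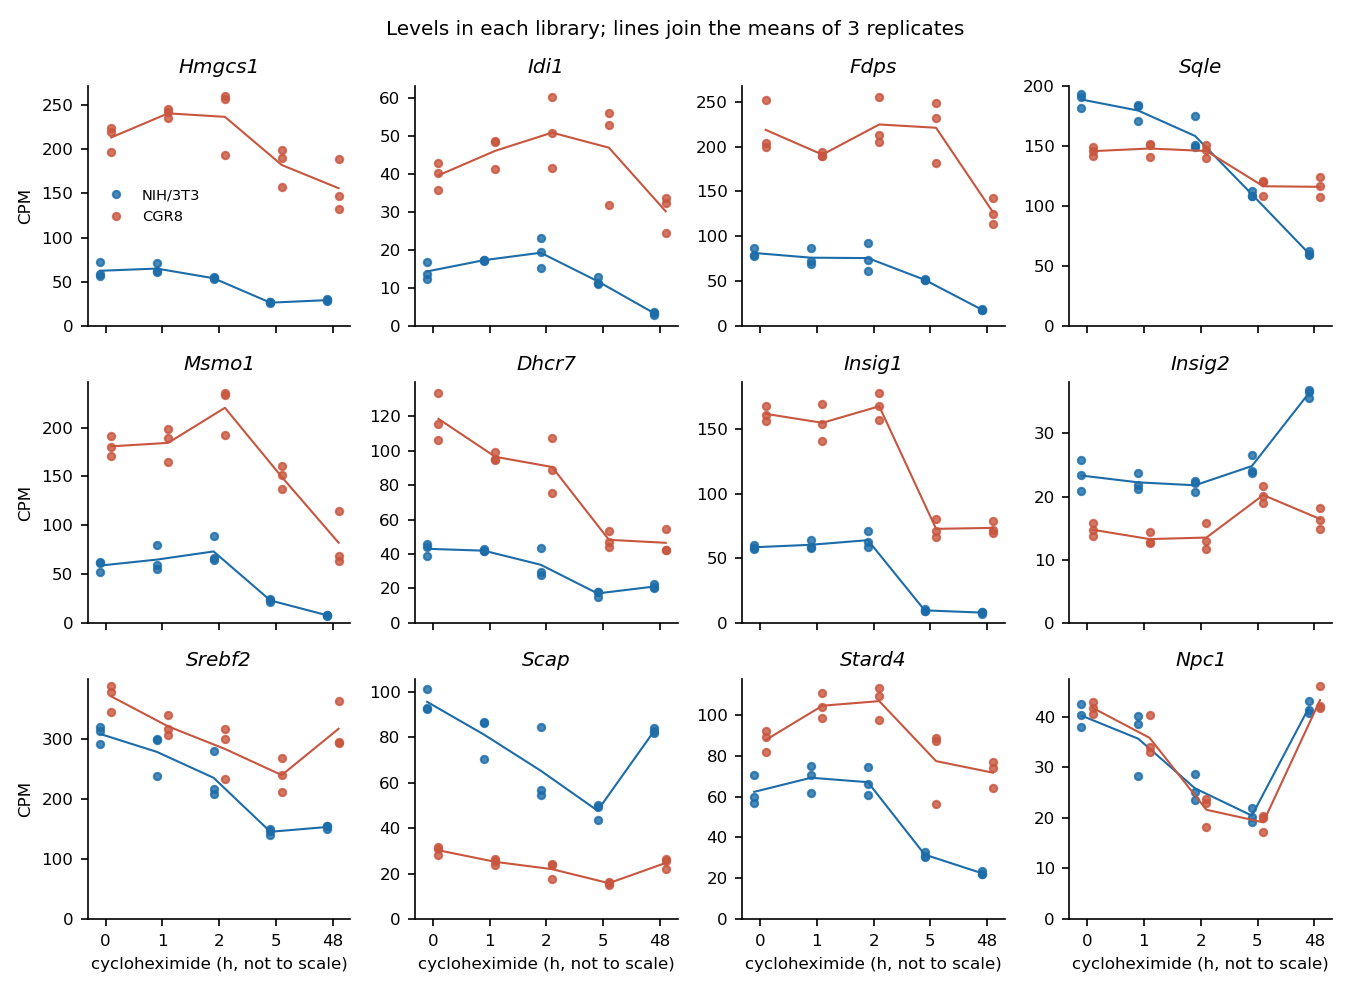
Level in CPM (linear axis from 0) of 12 members in each library against time in cycloheximide (0, 1, 2, 5 and 48 h, not to scale), NIH/3T3 in blue and CGR8 in red, with lines through the means of 3 replicates. Insig1 drops between 2 h and 5 h in both lines, Npc1 has its lowest mean at 5 h and has libraries at 48 h that overlap those of 0 h in both, and Fdps and Idi1 are lowest at 48 h in NIH/3T3.

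Of the transport and export genes, Npc1 followed nearly the same course in both lines. In NIH/3T3 it stood at 19.2, 20.2 and 21.9 CPM at 5 h and 43, 40.7 and 41.3 CPM at 48 h, a rise of log2 1.03 (SE 0.12, adjusted p = 1.5e-06). The CGR8 libraries had 17.1, 19.9 and 20.3 CPM at 5 h and 46, 41.7 and 42.1 CPM at 48 h, a rise of log2 1.18 (SE 0.12, adjusted p = 1.32e-06). The 48 h groups overlapped the 0 h groups in both lines, and the differences between the lines in its changes were log2 -0.06 (SE 0.17) at 5 h and log2 -0.02 (SE 0.17) at 48 h, neither called. Npc2, the soluble partner of NPC1 in the lysosome, stood in CGR8 at 204, 296 and 221 CPM at 0 h, 257, 276 and 188 CPM at 5 h and 158, 133 and 118 CPM at 48 h. It changed by log2 -0.82 (SE 0.19, adjusted p = 0.00496) in CGR8 and was not called at 48 h in NIH/3T3 (log2 -0.23, SE 0.12) in the main fit. Settings that called more members lower there are given with Scap above.

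Stard4, a soluble sterol carrier, stood at 59.9, 70.3 and 56.7 CPM at 0 h, 30.6, 31.1 and 33 CPM at 5 h and 21.9, 23.4 and 22.2 CPM at 48 h in NIH/3T3, 3 groups without overlap. Its changes were log2 -0.98 (SE 0.10, adjusted p = 1.94e-06) and log2 -1.47 (SE 0.11, adjusted p = 2.62e-08), and in CGR8 it was not called at 5 h (log2 -0.18, SE 0.14) or 48 h (log2 -0.29, SE 0.14). Abcg1 stood in CGR8 at 12.3, 15.3 and 11.4 CPM at 0 h, 7.20, 8.25 and 6.50 CPM at 5 h and 5.06, 5.93 and 5.97 CPM at 48 h, changes of log2 -0.83 (SE 0.14, adjusted p = 0.000192) and log2 -1.20 (SE 0.14, adjusted p = 2.01e-05). All its treated libraries of 5 h and 48 h lay below those of 0 h. In NIH/3T3 Abcg1 had 6, 2 and 10 counts at 0 h and 15, 16 and 14 counts at 48 h, or 0.564, 0.668 and 0.729 CPM, and the rise of log2 1.40 (SE 0.42, adjusted p = 0.0105) was not called without the 0 h replicate B (adjusted p = 0.0521). Because Abcg1 was tested there only through these 48 h libraries, the call gives no support for a rise. Abca1 stood in CGR8 at 13.8, 10.5 and 14.7 CPM at 0 h, 4.22, 9.52 and 11.5 CPM at 5 h and 16.4, 15.7 and 20.7 CPM at 48 h. The rise from 5 h to 48 h was called (log2 1.06, SE 0.26, adjusted p = 0.00223) and the change at 5 h was not (log2 -0.62, SE 0.26). In NIH/3T3 Abca1 had 9, 7 and 8 counts at 48 h and was not tested.

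The difference between the lines in each change was tested itself, as the CGR8 change minus the NIH/3T3 change in a fit of all 30 libraries. At 1 h and 2 h no member was called, where 0.16% and 2.02% of all genes were. At an unadjusted p under 0.05 the counts were 0 and 3 of 29, and DESeq2 called 0 at both times. At 5 h 10 members were called higher and 1 lower, where 8.18% and 5.09% of all genes were, and the members' median was log2 0.49 beside 0.13 for all genes. The largest difference was that of Insig1, log2 1.55 (SE 0.14, adjusted p = 2.03e-08), whose fall was the smaller in CGR8, and the 1 below 0 was that of Hsd17b7, log2 -0.56 (SE 0.18, adjusted p = 0.0369). The differences of Hmgcs1 (log2 1.09, SE 0.17), Msmo1 (log2 1.17, SE 0.23), Stard4 (log2 0.89, SE 0.18) and Insig1 held with each library left out in turn. Those of Acat2, Fdps, Sqle, Cyp51, Hsd17b7, Insig2 and Srebf2 did not. Fdps was lost without CGR8 5 h replicate A or CGR8 5 h replicate B (adjusted p = 0.122 and 0.0741). Sqle was lost without the CGR8 5 h replicate B (adjusted p = 0.0552). Cyp51 was lost without CGR8 5 h replicate A or CGR8 5 h replicate B (adjusted p = 0.0665 and 0.182). Acat2 was lost without any of 6 libraries (adjusted p up to 0.269), Hsd17b7 without any of 6 (up to 0.134), Insig2 without any of 11 (up to 0.298) and Srebf2 without any of 9 (up to 0.354), each count taken over the 12 libraries compared. The count of members called was 7 without NIH/3T3 5 h replicate C, CGR8 0 h replicate A or CGR8 0 h replicate C, 6 without CGR8 5 h replicate A and 5 without CGR8 5 h replicate B. Among all genes called at 5 h, 61.6% were higher, but 45.9% with RLE factors and 31.5% with library size alone, settings in which 7 and 6 members were called higher and 1 lower.

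At 48 h 13 members were called higher and 3 lower, where 9.78% and 12.1% of all genes were. The 13 were 10 enzymes (Acat2, Hmgcs1, Idi1, Fdps, Sqle, Cyp51, Msmo1, Nsdhl, Hsd17b7 and Sc5d), Insig1, Srebf2 and Stard4, whose falls in NIH/3T3 were larger than their changes in CGR8. Among the differences above 0 that of Msmo1 was the largest, log2 1.79 (SE 0.24, adjusted p = 4.04e-06), then those of Insig1, log2 1.74 (SE 0.14), and Idi1, log2 1.67 (SE 0.26). The 3 below 0 were Abcg1 (log2 -2.62, SE 0.41, adjusted p = 2.47e-05), Tm7sf2 (log2 -1.31, SE 0.32, adjusted p = 0.00305) and Insig2 (log2 -0.50, SE 0.15, adjusted p = 0.0177). The first of these rests on few counts in NIH/3T3, and Tm7sf2 stood there at 1.15 to 2.55 CPM over 0 h and 48 h. With each library left out in turn 15 of the 16 held. Insig2 was lost without NIH/3T3 0 h replicate C, CGR8 0 h replicate A or CGR8 48 h replicate B (adjusted p = 0.0793, 0.0588 and 0.0644). Differences not called included those of Dhcr7 (log2 -0.34, SE 0.20), Lbr (log2 -0.01, SE 0.18), Scap (log2 -0.11, SE 0.18), Lss (log2 0.11, SE 0.13) and Mvd (log2 0.17, SE 0.22).

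Other genes of the same metabolism were read from 4 lists. Of 20 genes of fatty acid synthesis and its regulator SREBP-1, 0 higher and 16 lower of 18 tested were called at 5 h in NIH/3T3 and 1 higher and 13 lower of 20 in CGR8. At 48 h the counts were 4 higher and 11 lower of 18 in NIH/3T3 and 0 higher and 12 lower of 20 in CGR8. By 48 h in NIH/3T3 the desaturase Scd2 had changed by log2 -1.34 (SE 0.11, adjusted p = 1.35e-07) and Lpin1, a phosphatidate phosphatase, by log2 0.73 (SE 0.14, adjusted p = 0.000514). Over all genes 24% were called higher and 27.1% lower at 5 h in NIH/3T3, 24.9% and 27.2% at 5 h in CGR8, 26.7% and 25.6% at 48 h in NIH/3T3, and 12.2% and 15.6% at 48 h in CGR8. In CGR8 the desaturase Fads2 had the largest fall, log2 -1.94 (SE 0.15, adjusted p = 3.89e-07). From 5 h to 48 h 10 of these genes were called higher and 3 lower of 18 in NIH/3T3 (median log2 0.33), where 34.1% and 31.4% of all genes were. In CGR8 5 were called higher and 6 lower of 20 (median log2 -0.11), where 28.9% and 28.6% of all genes were. The sterol enzymes had a median of log2 -0.56 in NIH/3T3 and log2 -0.49 in CGR8.

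Of 14 genes that escort, cleave or degrade the proteins of the sensing system, 4 higher and 6 lower of 14 were called at 48 h in NIH/3T3 and 1 higher and 3 lower of 14 in CGR8. Over all genes 26.7% were called higher and 25.6% lower in NIH/3T3 and 12.2% and 15.6% in CGR8. In NIH/3T3 Sec23a, a coat protein of transport vesicles, changed by log2 0.56 (SE 0.10, adjusted p = 0.000176) and Erlin1, a membrane protein of the degradation of INSIG and reductase, by log2 -0.72 (SE 0.08, adjusted p = 3.63e-06). In CGR8 the ubiquitin ligase genes Syvn1 and Rnf145 changed by log2 0.37 (SE 0.11, adjusted p = 0.0198) and log2 -0.56 (SE 0.11, adjusted p = 0.00162), and the call of Syvn1 was lost without 0 h replicate B, 0 h replicate C, 48 h replicate B or 48 h replicate C (adjusted p = 0.0537, 0.0631, 0.062 and 0.0641). Of 25 genes of LXR and other sterol handling, 0 higher and 12 lower of 19 tested were called at 5 h in NIH/3T3 and 0 higher and 16 lower of 21 in CGR8, and at 48 h 4 higher and 6 lower of 19 and 2 higher and 7 lower of 21. The shares over all genes at 5 h were 24% higher and 27.1% lower in NIH/3T3 and 24.9% and 27.2% in CGR8. Scarb1, the receptor that takes up cholesterol from high-density lipoprotein, changed by log2 -1.04 (SE 0.10, adjusted p = 4.85e-07) in NIH/3T3 and log2 -0.97 (SE 0.14, adjusted p = 8.95e-05) in CGR8 at 48 h. The largest rises of this list at 48 h were those of Abca7, a lipid transporter, in NIH/3T3 (log2 1.34, SE 0.18, adjusted p = 1.36e-05) and of Gramd1b, a carrier of sterol from the plasma membrane, in CGR8 (log2 0.67, SE 0.15, adjusted p = 0.00378).

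Of 15 genes of the branch that uses farnesyl and geranylgeranyl chains for other products, 6 higher and 4 lower of 15 were called at 5 h and 2 higher and 6 lower of 15 at 48 h in NIH/3T3, and 4 higher and 3 lower of 15 and 0 higher and 2 lower of 15 in CGR8. The shares over all genes were 24% higher and 27.1% lower at 5 h and 26.7% and 25.6% at 48 h in NIH/3T3, and 24.9% and 27.2%, and 12.2% and 15.6%, in CGR8. At 48 h Rabggtb, a subunit of the transferase that prenylates Rab proteins, changed by log2 -0.78 (SE 0.14, adjusted p = 0.000296) and Pggt1b, a subunit of another prenyl transferase, by log2 0.49 (SE 0.15, adjusted p = 0.0125) in NIH/3T3, the latter not called without the 0 h replicate C (adjusted p = 0.0584). In CGR8 Coq2, of ubiquinone synthesis, changed by log2 -0.73 (SE 0.13, adjusted p = 0.000495). The median change of the list at 48 h was log2 -0.14 in NIH/3T3 and 0.02 in CGR8, beside -1.07 and -0.57 for the sterol enzymes.

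Some counts cannot be assigned to a member with certainty. Exons of 11 members overlap those of another annotated gene, and since the strand setting of the counting is not given in the sources used here, reads of the 2 genes may not be told apart. For Fdps (with Gm43738), Tm7sf2 (with Vps51) and Lbr (with Gm26004, over 69 bases) the overlap is on the same strand. Stretches of at least 300 bases at 95% identity or more to transcripts of genes elsewhere were found for 5 members, Acat2 (in Acat3), Fdft1, Fdps, Ggps1 and Idi1. The values of these genes are the less certain for it.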

How the data were processed

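Gene counts of 30 libraries of polyadenylated RNA (stranded Illumina mRNA ligation kit, per the labels' protocols) were deposited by the authors as 1 matrix of whole-number counts, raw and not normalized per the file headers and values. The submitters' processing notes name STAR, DESeq2 and GRCm39. The counting tool, its strand setting and the annotation are not given in the sources used here. All 30 columns were used, and 0 rows named no gene. Totals were 18216993 to 30503109 counts per library, so that counting error matters mainly for Abca1 and Abcg1 in NIH/3T3. No 2 replicates agreed within sampling noise (lowest chi-square per degree of freedom 1.754).

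Symbols came from GENCODE M21 (GRCm38), matched without versions for 51880 of 57186 identifiers (90.7%), of which 35 matched with the version. Exon lengths, overlaps and copies came from the same annotation, the copies with blastn 2.17.0. Genes passed edgeR's filterByExpr (minimum count 10, total 15), which left 13941 in NIH/3T3, 15933 in CGR8 and 17549 in both together. Abca1 did not pass in NIH/3T3, and Abcg1 passed there only through its 48 h libraries. Each line's 15 libraries were fitted with edgeR 4.0.16 (R 4.3.3, TMM scaling, quasi-likelihood F test), each time against 0 h and 48 h against 5 h. All 30 libraries were fitted for the differences between lines. Adjusted p-values are Benjamini-Hochberg values over all genes tested, and called means below 0.05. The SE of a change, in text and figures, is its absolute log2 value divided by the square root of its F value. It is thus derived from the test and less reliable for genes of few counts. CPM use the TMM-scaled library sizes of the line. The scripts were tested on simulated data.

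The members and lists were chosen with earlier results of these data known. All members are named. Those given by library are, in each role, the 2 with the largest called change at 48 h in each line and those with the largest called line differences, with others added for the time course. Of each further list the called gene with the largest rise and the one with the largest fall at 48 h, with at least 5 mean CPM in the higher group, are named. The Hmgcs1 promoter was added after the motif search. Alternatives were RLE factors, library size alone, DESeq2 1.42.0, voom with sample quality weights (limma 3.58.1), no filter, a mean of at least 5 CPM, the replicate letter as a block, only the 6 libraries compared, and each library left out in turn. Leaving out the 5 outlying libraries together was added after seeing the data. Replicate letters may pair samples. Their deviations correlated over 0.1 in all 3 letters only for NIH/3T3 at 1 h against 0 h (0.196 to 0.410).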

Additional observations from a re-analysis of the deposited data

Results flagged for a closer look

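The results below stand out because the lines differed in their change from 0 h by the edgeR test of that difference itself, given as the CGR8 change minus the NIH/3T3 change on the log2 scale. At 48 h the differences above 0 were those of Sc5d (0.49), Hmgcs1 (0.61), Acat2 (0.67), Hsd17b7 (0.74), Srebf2 (0.76), Nsdhl (0.95), Cyp51 (1.05), Stard4 (1.16), Sqle (1.29), Fdps (1.32), Idi1 (1.67), Insig1 (1.74) and Msmo1 (1.79). Those below 0 at 48 h were Abcg1 (-2.62), Tm7sf2 (-1.31) and Insig2 (-0.5). At 5 h the differences above 0 were those of Insig2 (0.45), Cyp51 (0.53), Srebf2 (0.54), Sqle (0.55), Acat2 (0.64), Fdps (0.76), Stard4 (0.89), Hmgcs1 (1.09), Msmo1 (1.17) and Insig1 (1.55), and the difference below 0 was that of Hsd17b7 (-0.56). The genes called above 0 at both times were Cyp51, Srebf2, Sqle, Acat2, Fdps, Stard4, Hmgcs1, Msmo1 and Insig1. Hsd17b7 and Insig2 had opposite signs at 5 h and 48 h, and neither call at 5 h held with each library left out. The 5 h calls of Acat2, Fdps, Sqle, Cyp51 and Srebf2 did not hold either, nor did the 48 h call of Insig2. The difference of Abcg1 rests on fewer than 1 CPM in NIH/3T3.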

How the results depend on the processing

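Of 7196 alternatives computed for single genes, 6836 kept direction and side of the threshold, 180 lost a call, 179 gained one and 1 reversed. The reversal was Acat2 at 1 h in NIH/3T3, log2 0.01 with all libraries and -0.20 without the outlying libraries (adjusted p = 0.041). Of 244 alternatives for counts, 222 stayed within 1.5 times. With voom and sample quality weights the members called were 2 at 1 h and 11 at 2 h in NIH/3T3, 4 at 1 h in CGR8, and 2 at 2 h and 19 at 5 h for the line difference. Voom's totals over all genes tested were higher too. For NIH/3T3 they rose from 102 to 2881 at 1 h and from 4878 to 7827 at 2 h, and for CGR8 from 43 to 1044 at 1 h. For the line difference they rose from 355 to 709 at 2 h and from 2329 to 6373 at 5 h. With only the 6 libraries compared, the members called were 3 in NIH/3T3 and 2 in CGR8 at 2 h. Without the outlying libraries, a setting chosen after seeing the data, they were 2 at 1 h and 12 at 2 h in NIH/3T3 and 8 at 2 h in CGR8. The later totals stayed within 1.5 times, with, in NIH/3T3, 2 higher (0 with all libraries) and 22 lower at 5 h and 2 and 24 at 48 h, and in CGR8 6 higher (3 with all libraries) and 11 lower at 5 h and 0 and 20 at 48 h. The line difference at 5 h had 7 members called with library size alone and 7 with no filter. The cause was not tested.

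With 1 library left out the members called ranged from 2 to 7 at 2 h, 16 to 19 at 5 h and 22 to 23 at 48 h in NIH/3T3, from 2 to 6, 11 to 14 and 14 to 18 in CGR8, and from 5 to 15 at 5 h and 15 to 18 at 48 h for the line difference. From 5 h to 48 h they ranged from 19 to 21 in NIH/3T3 and from 17 to 20 in CGR8, and for the untreated lines from 25 to 27. The share of the 23 members with the sterol regulatory element was 43.5% with 1 mismatch, beside 4.35%. Scaling by library size alone moved the median of all genes by log2 -0.188 in the line difference at 5 h. The share of higher calls over all genes moved from 53.5% to 68.4% with library size alone at 1 h in CGR8, and from 42.8% to 31.8% with RLE factors for the line difference at 2 h.

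With the replicate letter as a block, the counts were 0, 6, 20 and 24 at 1, 2, 5 and 48 h in NIH/3T3, 0, 5, 14 and 18 in CGR8, 0, 0, 11 and 16 for the line difference, 23 and 19 from 5 h to 48 h, and 27 for the untreated lines. Among members, Insig2 lost its call from 5 h to 48 h in CGR8 (adjusted p = 0.0573) and in the line difference at 5 h (0.0546). Each letter correlated best with its own letter for 1 or 2 of the 3 libraries. At 1 h in NIH/3T3, where all 3 letters correlated over 0.1, no member's call changed with the block. Elsewhere the same-letter correlations were mixed, from -0.381 to 0.716 for CGR8 at 5 h. The labels do not say whether a letter pairs samples, and these values do not settle it.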
